A study of Mus musculus with 9 samples.

Results

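The 42 genes described here are interferon-stimulated genes: sensors of viral RNA and DNA, transcription factors of the interferon response, the OAS and IFIT families, the ISG15 system, other antiviral effectors and interferon-induced GTPases. They were taken as a list of named genes by their known function, with no threshold on expression, and each was matched by symbol to the deposited table of 54532 genes. The list was chosen with earlier results of these data known, so its shares beside those of all tested genes are descriptions. Livers of 3 groups of mice were sequenced, with 3 libraries in each: wild type on plain drinking water, Cth knockout on plain drinking water, and Cth knockout given water with 1% betaine. By the labels both knockout groups carry the same genotype and differ in betaine. The product of Cth, cystathionine gamma-lyase, carries out the last step of cysteine synthesis by transsulfuration, and betaine is a methyl donor that turns homocysteine back into methionine. The series was made to ask about CTH in chronic liver disease, and wild type mice on betaine are not part of it. Sex, age, strain and the design of the knockout allele are not given in the sources used here.

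Type I interferons bind the receptor pair IFNAR1 and IFNAR2 on nearly every cell, and the kinases JAK1 and TYK2 then switch on the transcription factor ISGF3. ISGF3 contains STAT2 and IRF9 and binds the interferon-stimulated response element (ISRE) in the promoters of genes such as Isg15, Ifit1 and Rsad2. Interferon gamma acts mainly through a different element, GAS, and is the stronger inducer of the guanylate-binding proteins and the immunity-related GTPases. In the liver hepatocytes, Kupffer cells and endothelial cells all respond, and a low level of these transcripts is present without infection.

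Values are FPKM, that is, fragments per kilobase of exon divided by a denominator for each library, so levels can be compared between genes. The denominators followed size factors, with a correlation of 0.9999998 on the log2 scale. A size factor is the median over genes of a library's reads relative to the mean over libraries. The denominators were not the read totals, which were 0.882 to 1.12 times as large. Recovered read totals were between 15184913 and 17473919 per library, and 3 reads in a 1 kb gene correspond to 0.162 to 0.222 FPKM, a limit that covers counting error only. Hepatocyte marker genes (Alb, Ttr, Apoa1, Serpina1c, Tat and Cyp2e1) summed to between 32140 and 65122 FPKM in every library, which is what liver should show. Cth stood at 285, 257 and 219 FPKM in wild type and at no more than 0.781 FPKM in any knockout library, betaine included. The library labelled wild type replicate 3 differed from the other 8 in sex-linked transcripts: Xist was at 26.6 FPKM there and at most 0.0124 FPKM elsewhere, and Uty, Kdm5d, Eif2s3y and Ddx3y, all on the Y chromosome, had 0 reads there and 1512 to 2393 in sum elsewhere. Female-type transcripts were thus found in 1 wild type library only, so counts of calls are given with and without that library, and the interferon-stimulated genes whose call changed are named. Whether replicates are separate animals is not stated, so p-values measure the spread between these samples, which may be technical. In whole liver, fewer cells of a type and less RNA per cell cannot be told apart.

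All 42 genes were found in the table and 39 averaged 0.5 FPKM or more across all libraries, the level needed for testing. The others were Oas1g, Oas3 and Mx1, whose highest library values were 1.024, 0.414 and 0.831 FPKM. Differences were tested with limma on log2(FPKM + 0.5), which understates the change of genes at low levels, and p-values were adjusted over all 11852 genes tested. Called means an adjusted p under 0.05, and every log2 fold change below is on this scale.

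**Figure D1:**
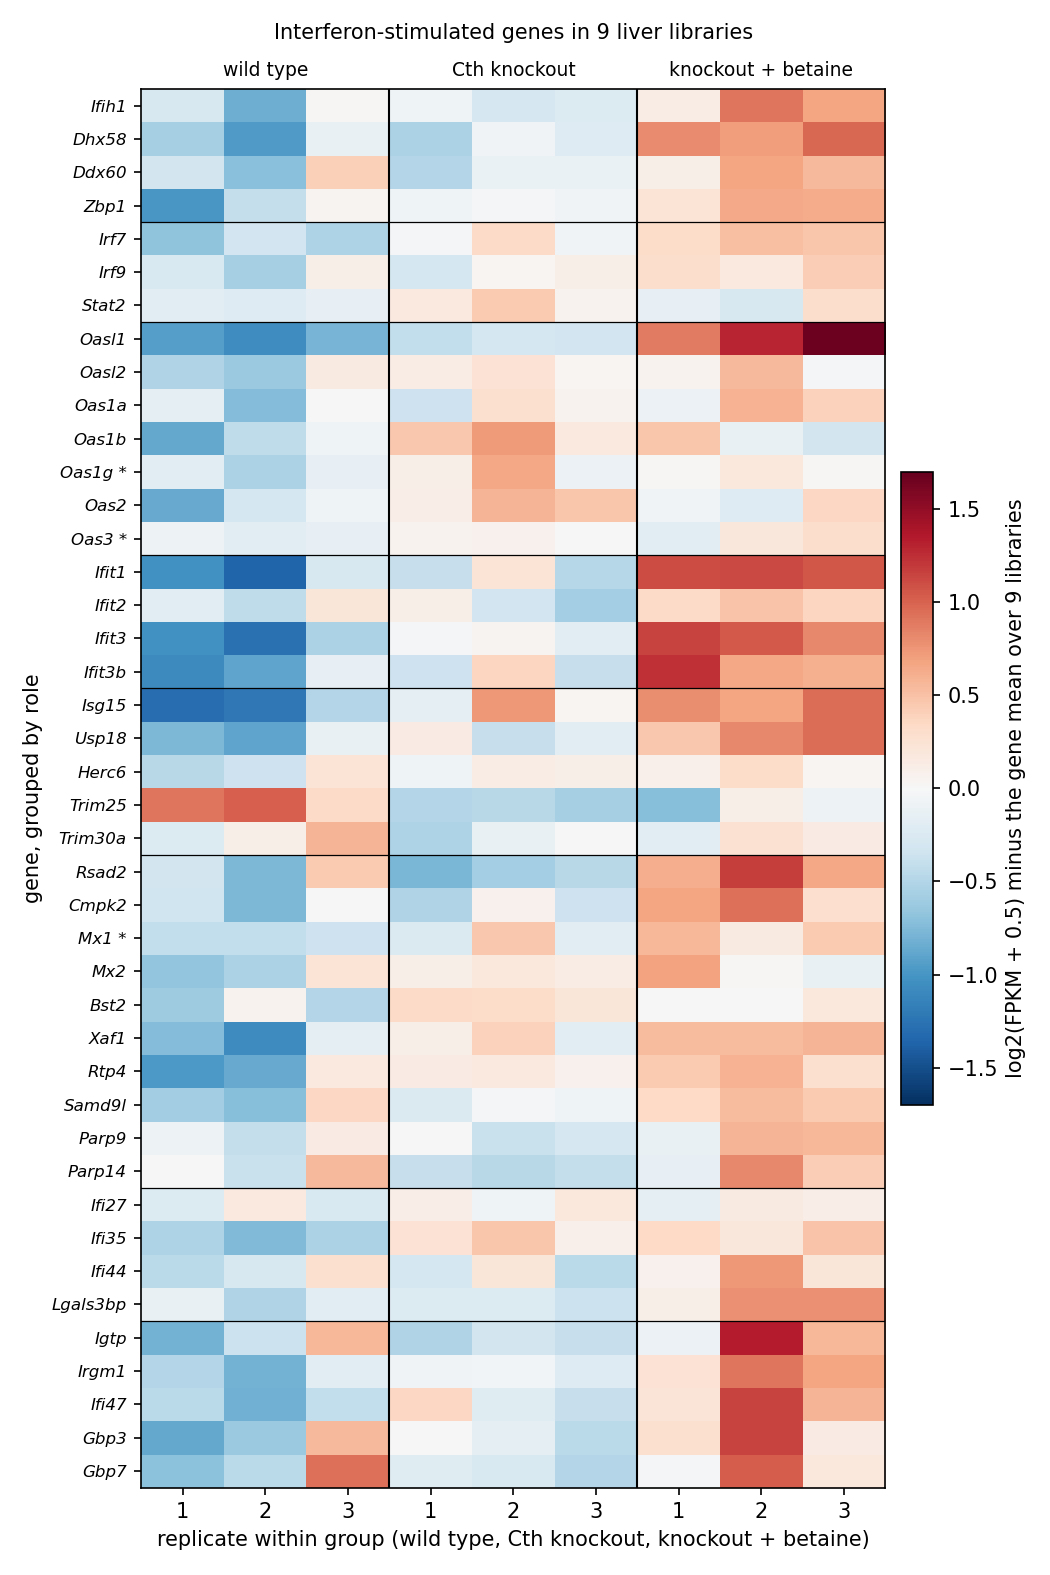
Level of each of the 42 genes (rows, grouped by role) in each of the 9 liver libraries (columns), as log2(FPKM + 0.5) minus the gene's mean over the 9 libraries; red is above and blue below that mean, and an asterisk marks the 3 genes too low to be tested. Most rows are blue in wild type replicates 1 and 2 and red in the betaine group, and Trim25 runs the other way.

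Between knockout and wild type, 9 of the 39 tested genes were higher and 1 was lower. Over all tested genes 12.8% were called higher and 12.7% lower in that comparison, so the count of higher genes was 23.1% against that background. Higher genes were Isg15, Oas1b, Ifit3, Ifi35, Oas2, Xaf1, Bst2, Irf7 and Oasl1, with log2 fold changes from 0.58 to 1.21, and the lower gene was Trim25, a ubiquitin ligase of the RIG-I pathway. The median log2 fold change of the 39 was 0.29, beside 0.02 over all tested genes, and 28 of 39 were above 0, as were 51.2% of all tested genes. Groups did not overlap in FPKM for 10 genes higher in knockout, 25.6% of the 39, beside 23.6% of all tested genes.

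The call depended on single libraries more than the direction did. With wild type replicate 3 left out, the comparison of knockout with wild type called 12 higher and 1 lower, beside 9.99% and 11.7% of all tested genes, and the median rose to 0.54. Of the 9 higher calls 7 were kept without it, Oasl1 and Bst2 were lost (limma adjusted p = 0.0515 and 0.0663), and Ifit1, Oasl2, Rtp4, Samd9l and Usp18 were added. With Cth knockout replicate 2 left out, 1 gene was called higher, and with wild type replicate 1 left out 3 were. Those fits called 896 and 1826 of all tested genes, 44.8% and 53.0% of them higher, beside 3029 and 50.2% with all libraries. In both fits the genes here were called higher no more often than all tested genes. Ifi35 and Trim25 kept their calls in each of the 9 fits that left out 1 library, Ifit3 and Isg15 in 8, Irf7 in 7, Bst2 in 4, Oas1b and Oas2 in 3, Oasl1 in 2 and Xaf1 in 1.

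With betaine, 1 gene was called higher than in the unsupplemented knockout, Oasl1, and 0 were lower. That comparison called 5 genes in the whole table: 0.0169% of genes tested were higher and 0.0253% lower, and the other genes called were Bbc3, Gm12276, Gm26271 and mt-Tv. The interferon-stimulated genes nevertheless lay to one side of 0: 34 of 39 had a positive log2 fold change (49.8% of all tested genes), and their median was 0.56, beside 0.00 for all. At an unadjusted p under 0.05, 19 were higher and 0 lower, where 11.6% and 11.0% of all tested genes were. Levels in the 3 betaine libraries were all above those in the 3 knockout libraries for 22 genes, 56.4% of the 39 beside 15.6% of all tested genes. The fit without wild type replicate 3, which enters here only through the shared estimate of spread, called 6 genes higher and 0 lower (1.11% and 1.2% of all tested genes): Dhx58, Ifit1, Ifit3, Oasl1, Rsad2 and Usp18. Leaving out betaine replicate 1 gave 10 calls, and leaving out wild type replicate 1, any knockout library or betaine replicate 2 gave 0. Without betaine replicate 1, 878 of all tested genes were called, 54.4% of them higher, and the fits with 0 calls here called 0 to 7.

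Against wild type, 18 of the 39 tested genes were higher in the betaine knockout and 1, Trim25, was lower. Of all tested genes 5.87% were called higher and 5.78% lower. The largest log2 fold changes were those of Oasl1 (2.21), Ifit1 (1.98), Ifit3 (1.95), Isg15 (1.81) and Ifit3b (1.54), and 37 of 39 genes were above 0 (50.5% of all tested genes) with a median of 0.80. In 20 genes the 3 betaine libraries lay above the 3 wild type libraries, 51.3% beside 16.1% of all tested genes. Each of the 18 calls was kept without wild type replicate 3 and Ddx60, Gbp3, Irf9 and Samd9l were added, which made 22 higher beside 5.59% of all tested genes and left 1 lower beside 6.4%. Without wild type replicate 1 or betaine replicate 3 the count was 9, and without wild type replicate 2 it was 11. In that order those fits called 578, 351 and 638 of all tested genes, of which 58.3%, 53.3% and 51.6% were higher. Dhx58, Irf7, Oasl1, Ifit1, Ifit3, Isg15, Usp18 and Ifi35 kept their calls in each of the 9 fits that left out 1 library. Irgm1 kept its call in 8, Xaf1 in 7, Ifit3b and Ifi47 in 6, Trim25 and Lgals3bp in 5, Cmpk2 in 3, Ifih1 in 2, and Zbp1, Rsad2 and Rtp4 in 1. The comparisons share libraries in pairs, so these counts are not independent of one another.

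**Figure D2:**
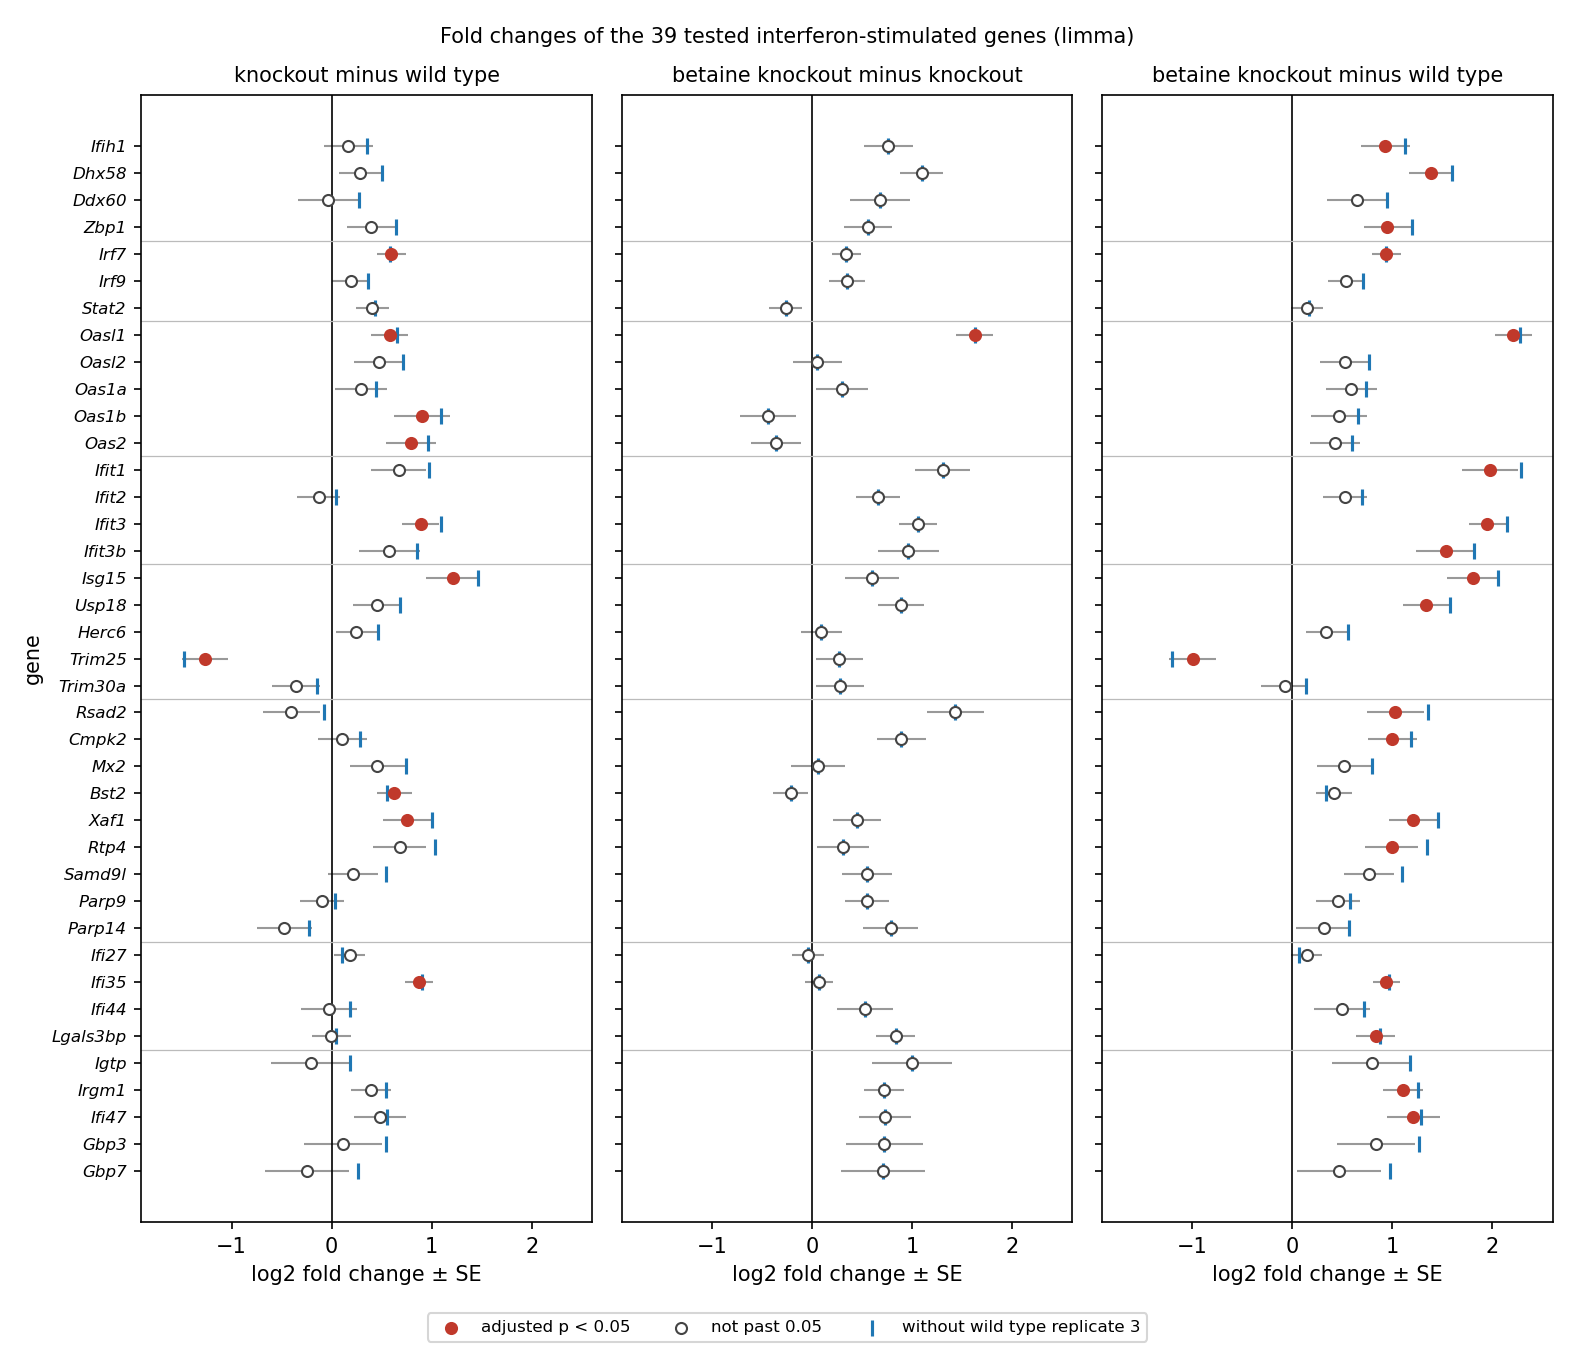
Log2 fold change (x axis, on the log2(FPKM + 0.5) scale) with its SE for each of the 39 tested genes (y axis) in the 3 comparisons; filled red circles are past an adjusted p of 0.05 in limma, and blue bars give the value without wild type replicate 3. The betaine knockout against wild type (right panel) has 18 filled circles to the right of 0 and Trim25 to the left, and the betaine comparison within the knockout (middle panel) has Oasl1 alone.

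Promoters were examined because ISGF3 recognises a known element. The list was chosen as interferon-stimulated genes, so an excess of the ISRE follows from that choice and is not a result about these libraries. RefSeq windows of 250 bases before to 50 bases after the start site (GRCm38.p6) were available for 31 of the 42 genes. The ISRE core, searched on both strands as GAAA, any 2 bases and GAAA again, was found in 17 of these 31 genes (54.8%) and in 3.99% of all 27025 genes with a window. Its longer form, the core followed directly by CT, every match of which is also a core match, was found in 35.5% of the genes here and 0.303% of all. The GAS element TTCNNNGAA, searched on both strands, was found in 19.4% of the genes here and 9.55% of all. The median log2 fold change between betaine knockout and wild type was 0.84 for the 15 tested genes with a core and 0.80 for the 14 without one. Between betaine knockout and knockout these medians were 0.72 and 0.49, and between knockout and wild type 0.29 and 0.23, with no test of the difference. A match is a string of letters and not a measured binding site.

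Windows of 6 genes are shown because they carry the largest changes or contrast in their elements, with core matches in capitals, including runs of overlapping matches. They lie at chr4:156200769-156201068 on the minus strand (Isg15), chr19:34640639-34640938 on the plus strand (Ifit1), chr19:34583279-34583578 on the plus strand (Ifit3), chr19:34607707-34608006 on the plus strand (Ifit3b), chr11:48871371-48871670 on the minus strand (Irgm1) and chr5:114922990-114923289 on the plus strand (Oasl1). Each is written 5′ to 3′ on the strand of the gene.
Isg15: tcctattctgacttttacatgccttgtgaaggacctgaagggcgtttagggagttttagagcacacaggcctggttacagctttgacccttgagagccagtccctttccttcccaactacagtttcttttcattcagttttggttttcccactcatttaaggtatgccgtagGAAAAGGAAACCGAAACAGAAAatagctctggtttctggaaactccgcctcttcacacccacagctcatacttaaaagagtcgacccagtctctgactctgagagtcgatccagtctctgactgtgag
Ifit1: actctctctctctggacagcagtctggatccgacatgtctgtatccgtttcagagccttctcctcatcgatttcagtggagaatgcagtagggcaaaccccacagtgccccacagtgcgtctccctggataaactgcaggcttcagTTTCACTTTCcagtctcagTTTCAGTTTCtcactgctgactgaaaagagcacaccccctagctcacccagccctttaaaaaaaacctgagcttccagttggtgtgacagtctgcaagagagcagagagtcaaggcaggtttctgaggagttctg
Ifit3: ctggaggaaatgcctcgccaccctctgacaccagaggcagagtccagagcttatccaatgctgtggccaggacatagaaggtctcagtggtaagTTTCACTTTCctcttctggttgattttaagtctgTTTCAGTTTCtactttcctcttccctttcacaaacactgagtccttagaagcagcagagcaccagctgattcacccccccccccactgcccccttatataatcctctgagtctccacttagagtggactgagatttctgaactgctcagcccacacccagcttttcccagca
Ifit3b: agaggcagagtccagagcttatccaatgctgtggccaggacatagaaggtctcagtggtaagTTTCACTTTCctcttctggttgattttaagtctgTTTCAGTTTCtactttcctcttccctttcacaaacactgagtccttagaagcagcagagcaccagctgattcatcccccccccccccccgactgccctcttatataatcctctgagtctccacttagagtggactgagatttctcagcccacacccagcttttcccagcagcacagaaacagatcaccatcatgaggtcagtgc
Irgm1: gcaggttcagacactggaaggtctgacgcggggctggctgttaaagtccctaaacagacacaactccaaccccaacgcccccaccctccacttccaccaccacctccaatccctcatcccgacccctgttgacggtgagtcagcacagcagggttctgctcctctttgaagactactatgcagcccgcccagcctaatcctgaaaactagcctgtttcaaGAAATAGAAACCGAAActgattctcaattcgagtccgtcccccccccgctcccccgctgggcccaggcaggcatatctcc
Oasl1: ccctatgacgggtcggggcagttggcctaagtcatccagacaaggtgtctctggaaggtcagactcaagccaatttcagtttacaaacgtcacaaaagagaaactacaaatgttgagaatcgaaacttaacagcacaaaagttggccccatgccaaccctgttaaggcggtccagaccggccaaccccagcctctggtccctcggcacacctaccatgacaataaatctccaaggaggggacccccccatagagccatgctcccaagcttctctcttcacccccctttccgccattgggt
Isg15 carried 3 overlapping cores whose first bases lay at -78, -72 and -66 from the start site, and Irgm1 carried 2 at -30 and -24. Ifit1 carried its 2 cores on the opposite strand at -104 and -85. Ifit3 and Ifit3b, neighbouring copies of one gene, each held 2 cores whose starts were 34 bases apart. Laid over each other at the best shift with no gap allowed, their windows were 75% identical over 268 bases. A run of C differs in length between them, so bases after it were compared out of register and 75% understates their identity. Oasl1, with the largest fold change of the list, held no core match in its window.

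Of the 4 sensors, 3 were called higher in the betaine knockout than in wild type, as were 5.87% of all tested genes. Dhx58 encodes LGP2 and Ifih1 encodes MDA5, helicases that bind double-stranded viral RNA; Zbp1 binds Z-form nucleic acid and Ddx60 is an RNA helicase. With all libraries 0 of 4 were called in either of the other comparisons. All 4 had betaine libraries above every knockout library, as had 15.6% of all tested genes. Dhx58 was at 1.98, 1.38 and 2.86 FPKM in wild type, 2.04, 3.04 and 2.67 in knockout and 5.90, 5.49 and 6.73 in betaine knockout. The betaine libraries stood apart from the other 6, and the change from wild type was log2 fold change 1.38 ± 0.21 (SE), limma adjusted p = 0.00840. Ifih1 was at 3.02, 1.89 and 3.81 FPKM in wild type, 3.56, 3.00 and 3.12 in knockout and 4.14, 7.48 and 6.28 in betaine knockout. Its betaine replicate 1 lay only just above the highest other library, and the change from wild type was log2 fold change 0.93 ± 0.25 (SE), limma adjusted p = 0.0415. Zbp1 was at 0.810, 1.46 and 2.18 FPKM in wild type, 1.97, 2.04 and 1.998 in knockout and 2.56, 3.55 and 3.53 in betaine knockout. Its 3 knockout libraries were nearly equal while wild type ran from 0.810 to 2.18, and the betaine group was higher than wild type (log2 fold change 0.95 ± 0.24 (SE), limma adjusted p = 0.0351). The calls of Ifih1 and Zbp1 were kept in 2 and 1 of the 9 fits that left out 1 library, and both were lost without wild type replicate 1 or 2. Ddx60 stayed lower, at 0.358, 0.151 and 0.910 FPKM in wild type, 0.256, 0.487 and 0.479 in knockout and 0.636, 1.20 and 1.06 in betaine knockout. Its value in wild type replicate 3 lay inside the betaine range, and the difference from wild type did not pass the test (limma adjusted p = 0.179, and 0.0435 without that library).

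Of the transcription factors, Irf7 was the one called. IRF7 amplifies the interferon response by driving interferon genes themselves, and IRF9 and STAT2 are subunits of ISGF3. Irf7 was at 7.18, 9.35 and 8.07 FPKM in wild type, 11.7, 15.0 and 11.3 in knockout and 14.8, 17.01 and 16.6 in betaine knockout. Every knockout library was above every wild type library, and betaine libraries overlapped the highest knockout library. Its rise over wild type was log2 fold change 0.59 ± 0.15 (SE), limma adjusted p = 0.0189 in the knockout and log2 fold change 0.94 ± 0.15 (SE), limma adjusted p = 0.00840 in the betaine knockout. Irf9 was at 5.43, 4.30 and 7.08 FPKM in wild type, 5.28, 6.78 and 7.12 in knockout and 8.23, 7.49 and 9.002 in betaine knockout. Betaine values were the highest, but the difference from wild type did not pass with all libraries (limma adjusted p = 0.0830). It passed without wild type replicate 3 (limma adjusted p = 0.0293). Stat2 was at 9.28, 9.15 and 9.66 FPKM in wild type, 12.1, 14.7 and 11.2 in knockout and 9.69, 8.80 and 13.3 in betaine knockout. Knockout libraries were above wild type without passing (limma adjusted p = 0.0946), and 2 of the betaine libraries lay at wild type levels.

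In the OAS family, Oasl1 was called in all 3 comparisons and Oas1b and Oas2 in the knockout against wild type. These enzymes make short 2-5-linked oligoadenylates that activate RNase L, and Oasl1, an OAS-like protein without that activity, is known as a translational repressor of Irf7. Oasl1 (chromosome 5, 114923240 to 114937915, plus strand) was at 2.41, 2.18 and 2.71 FPKM in wild type, 3.69, 4.03 and 3.94 in knockout and 9.76, 13.1 and 17.2 in betaine knockout. The 3 groups did not overlap, with means of 2.44, 3.88 and 13.4 FPKM in that order. Fold changes of Oasl1 given here were fitted on log2(FPKM + 0.5) and are smaller than the ratios of these means. By that measure the betaine libraries were 3.09-fold above the knockout libraries (log2 fold change 1.63 ± 0.18 (SE), limma adjusted p = 0.0391). That call was kept in 4 of the 9 fits that left out 1 library, with adjusted p from 0.0180 to 0.178. Against wild type the change was 4.62-fold (log2 fold change 2.21 ± 0.18 (SE), limma adjusted p = 0.00169), and in the knockout without betaine it was 1.497-fold (log2 fold change 0.58 ± 0.18 (SE), limma adjusted p = 0.0456), a call kept in 2 of those 9 fits and lost without any 1 of the wild type libraries.

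Oas1b and Oas2 were called in the knockout and not in the betaine knockout. Oas1b, annotated as a polymorphic pseudogene, was at 0.159, 0.394 and 0.638 FPKM in wild type, 1.15, 1.49 and 0.843 in knockout and 1.162, 0.596 and 0.469 in betaine knockout. All knockout libraries were above all wild type libraries (log2 fold change 0.90 ± 0.28 (SE), limma adjusted p = 0.0405), betaine replicates 2 and 3 lay within the wild type range, and the difference between the knockout groups did not pass (limma adjusted p = 0.370). Its reads numbered 5 to 42 per library, so the levels are imprecise. Oas2 was at 0.1997, 0.529 and 0.696 FPKM in wild type, 0.865, 1.38 and 1.25 in knockout and 0.707, 0.582 and 1.12 in betaine knockout. The knockout was again above wild type without overlap (log2 fold change 0.79 ± 0.25 (SE), limma adjusted p = 0.0440), the betaine group overlapped both, and its difference from the knockout did not pass (limma adjusted p = 0.413). The knockout calls of Oas1b and Oas2 were each kept in 3 of the 9 fits that left out 1 library, and lost without wild type replicate 1 or 2 or any knockout library. Oasl2 and Oas1a did not pass in any of the 3 comparisons with all libraries. Oasl2 was at 0.369, 0.298 and 0.885 FPKM in wild type, 0.859, 0.973 and 0.769 in knockout and 0.792, 1.32 and 0.713 in betaine knockout. Without wild type replicate 3, the highest of its group, the knockout was called higher (log2 fold change 0.71 ± 0.22 (SE), limma adjusted p = 0.0452). Oas1a ran from 0.694 to 2.49 FPKM with overlapping groups. Oas1g and Oas3, too low for testing, had knockout values of 0.402 to 1.024 and 0.237 to 0.279 FPKM, above their wild type values of 0.168 to 0.378 and 0.148 to 0.198.

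The IFIT family had a median log2 fold change of 1.74 between betaine knockout and wild type, where the other 7 roles had medians from 0.34 to 0.94. IFIT proteins bind viral RNA that lacks the host cap structure and form complexes with one another. In the betaine knockout 3 of 4 were called higher than wild type (5.87% of all tested genes), and all 4 lay above both other groups without overlap. Betaine libraries lay above all wild type libraries in 16.1% of all tested genes and above all knockout libraries in 15.6%. Ifit1 (chromosome 19, 34640871 to 34650009, plus strand) was at 2.27, 1.699 and 4.18 FPKM in wild type, 3.79, 6.13 and 3.54 in knockout and 11.6, 11.7 and 11.2 in betaine knockout. The betaine libraries lay close together (11.5 ± 0.243, SD, n = 3) while wild type and knockout overlapped, and the rise over wild type was log2 fold change 1.98 ± 0.28 (SE), limma adjusted p = 0.00682. Over the knockout the rise was log2 fold change 1.31 ± 0.28 (SE), limma adjusted p = 0.0837, and did not pass with all libraries. It passed without wild type replicate 3 (limma adjusted p = 0.0311). Ifit3 was at 3.13, 2.59 and 4.59 FPKM in wild type, 6.79, 7.15 and 6.003 in knockout and 15.9, 14.8 and 12.5 in betaine knockout. Here the 3 groups formed separate steps, with log2 fold change 0.89 ± 0.19 (SE), limma adjusted p = 0.0117 for knockout minus wild type and log2 fold change 1.95 ± 0.19 (SE), limma adjusted p = 0.00216 for betaine knockout minus wild type. Ifit3b was at 0.540, 0.687 and 1.49 FPKM in wild type, 1.22, 2.33 and 1.18 in knockout and 4.72, 2.97 and 2.83 in betaine knockout. The betaine group was higher than wild type (log2 fold change 1.54 ± 0.30 (SE), limma adjusted p = 0.0169), and knockout replicate 2 approached the lowest betaine library. Ifit2 was at 0.808, 0.600 and 1.21 FPKM in wild type, 1.09, 0.682 and 0.496 in knockout and 1.36, 1.58 and 1.41 in betaine knockout. Betaine libraries were the highest but the step was smaller and did not pass (limma adjusted p = 0.138 against wild type). Ifit3 and Ifit3b shared 51.2% and 45.0% of their 50-base exon windows, so reads may have been split between or withheld from both, and their separate values are uncertain.

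**Figure D3:**
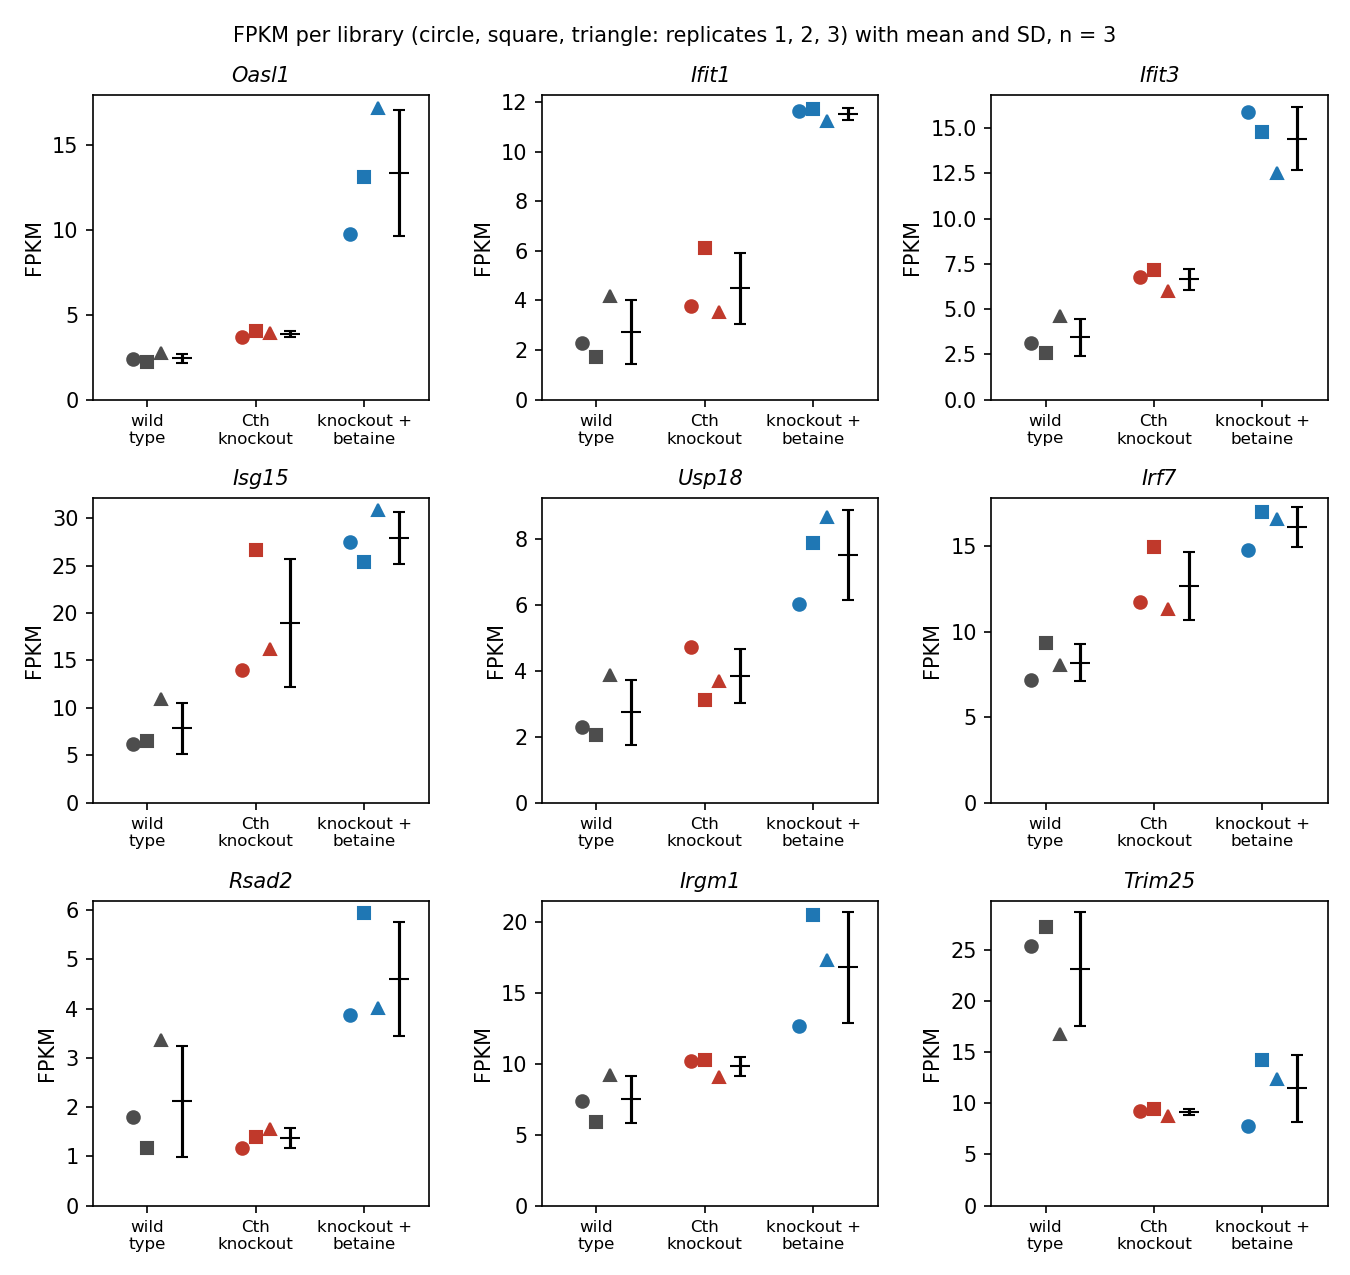
FPKM (y axes, each from 0) of 9 genes in the 3 libraries of each group; circles, squares and triangles are replicates 1, 2 and 3, and the bars give the mean and SD (n = 3). Oasl1, Ifit3, Isg15 and Irf7 have every knockout library above every wild type library. In Ifit1, Usp18, Rsad2 and Irgm1 these groups overlap, and Trim25 is highest in wild type.

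Isg15 rose in both knockout groups against wild type, Usp18 rose in the betaine knockout, and Trim25 fell in both. ISG15 is a ubiquitin-like protein that is attached to other proteins, HERC6 is the mouse ligase for it, and USP18 removes it and also restrains interferon receptor signalling. Isg15 (chromosome 4, 156199424 to 156200818, minus strand) was at 6.13, 6.49 and 10.97 FPKM in wild type, 14.0, 26.7 and 16.2 in knockout and 27.6, 25.4 and 30.9 in betaine knockout. All knockout libraries exceeded all wild type libraries (log2 fold change 1.21 ± 0.27 (SE), limma adjusted p = 0.0137), and knockout replicate 2 reached the betaine range. Without that replicate the knockout call was lost (limma adjusted p = 0.0973). The betaine group was log2 fold change 1.81 ± 0.27 (SE), limma adjusted p = 0.00742 against wild type. Usp18 was at 2.30, 2.04 and 3.86 FPKM in wild type, 4.72, 3.11 and 3.68 in knockout and 6.02, 7.87 and 8.68 in betaine knockout. Its knockout overlapped wild type replicate 3, and only the betaine group was called higher than wild type (log2 fold change 1.34 ± 0.23 (SE), limma adjusted p = 0.0111). Herc6 was at 0.519, 0.598 and 1.1602 FPKM in wild type, 0.836, 1.04 and 1.00 in knockout and 0.997, 1.25 and 0.938 in betaine knockout. The groups overlapped and it passed in none of the comparisons.

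Trim25, which encodes a ubiquitin ligase that acts on RIG-I, was the 1 gene of the list called lower. It was at 25.4, 27.3 and 16.8 FPKM in wild type, 9.20, 9.42 and 8.80 in knockout and 7.80, 14.2 and 12.4 in betaine knockout. Wild type exceeded both knockout groups in every library, with log2 fold change -1.26 ± 0.23 (SE), limma adjusted p = 0.00844 in the knockout and log2 fold change -0.99 ± 0.23 (SE), limma adjusted p = 0.0294 in the betaine knockout. The lowest wild type value was that of replicate 3, so the fall was larger without it (log2 fold change -1.48 ± 0.22 (SE), limma adjusted p = 0.00909 in the knockout). Trim30a, a regulator of NF-kappaB signalling, ran from 0.594 to 1.84 FPKM, highest in wild type replicate 3, and passed in none of the comparisons.

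Among the other effectors 2 of 9 tested genes were called higher in the knockout and 4 of 9 in the betaine knockout, both against wild type. Of all tested genes 12.8% and 5.87% were called higher in these comparisons. Rsad2 encodes viperin, which makes a chain-terminating nucleotide, and Cmpk2, its neighbour on chromosome 12, encodes a mitochondrial nucleotide kinase. Rsad2 was at 1.80, 1.18 and 3.37 FPKM in wild type, 1.161, 1.40 and 1.55 in knockout and 3.88, 5.94 and 4.01 in betaine knockout. Knockout and wild type overlapped, betaine values exceeded both groups, and the rise over wild type was log2 fold change 1.03 ± 0.28 (SE), limma adjusted p = 0.0472. Over the knockout it was log2 fold change 1.43 ± 0.28 (SE), limma adjusted p = 0.0837, the second largest of the list after Oasl1. Cmpk2 was at 1.54, 1.021 and 2.07 FPKM in wild type, 1.32, 2.22 and 1.52 in knockout and 3.59, 4.46 and 2.65 in betaine knockout. Wild type and knockout overlapped and the betaine group was higher than wild type (log2 fold change 1.00 ± 0.24 (SE), limma adjusted p = 0.0333). The calls against wild type were kept in 1 (Rsad2) and 3 (Cmpk2) of the 9 fits that left out 1 library.

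Xaf1, an apoptosis-associated factor, was at 0.433, 0.237 and 0.896 FPKM in wild type, 1.17, 1.53 and 0.859 in knockout and 1.75, 1.76 and 1.81 in betaine knockout. The betaine libraries agreed closely and were above all others (log2 fold change 1.20 ± 0.24 (SE), limma adjusted p = 0.0173 against wild type), while the knockout call (log2 fold change 0.75 ± 0.24 (SE), limma adjusted p = 0.0459) was kept in 1 of the 9 fits that left out 1 library. Rtp4, a chaperone of receptors at the cell surface, was at 2.38, 2.64 and 5.84 FPKM in wild type, 5.73, 5.85 and 5.45 in knockout and 7.21, 8.05 and 6.34 in betaine knockout. Its value in wild type replicate 3 lay with the knockout libraries, and the betaine group was higher than wild type (log2 fold change 0.99 ± 0.26 (SE), limma adjusted p = 0.0417). Of the 9 fits that left out 1 library, only the fit without wild type replicate 3 kept that call. In that fit the knockout was also called (log2 fold change 1.04 ± 0.14 (SE), limma adjusted p = 0.00904). Bst2, which encodes tetherin and holds budding virus at the cell membrane, was the most abundant gene of the list. It was at 147, 233 and 158 FPKM in wild type, 279, 278 and 257 in knockout and 224, 225 and 254 in betaine knockout. The knockout was above wild type without overlap (log2 fold change 0.63 ± 0.18 (SE), limma adjusted p = 0.0313), and all betaine values were below all knockout values without passing the test (limma adjusted p = 0.502). Its call was lost without wild type replicate 3.

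Samd9l, Parp9, Parp14 and Mx2 passed in none of the comparisons with all 9 libraries. Samd9l, a restriction factor, was at 1.51, 1.33 and 3.35 FPKM in wild type, 2.05, 2.49 and 2.38 in knockout and 3.34, 3.88 and 3.62 in betaine knockout. Wild type replicate 3 was 2.36-fold above the mean of the other wild type libraries, and without it both knockout groups were called higher (log2 fold changes 0.55 and 1.10). Parp14, a mono-ADP-ribosyltransferase, was at 2.82, 2.07 and 4.40 FPKM in wild type, 2.06, 1.92 and 2.03 in knockout and 2.55, 5.40 and 3.97 in betaine knockout. Its knockout libraries lay below wild type and its betaine libraries above the knockout, neither difference past the test. Mx2, annotated as a polymorphic pseudogene, was at 0.580, 0.688 and 1.53 FPKM in wild type, 1.35, 1.44 and 1.37 in knockout and 2.27, 1.24 and 1.09 in betaine knockout. Mx1, a dynamin-like antiviral GTPase too low for testing, was at 0.168, 0.173 and 0.204 FPKM in wild type, 0.254, 0.726 and 0.284 in knockout and 0.831, 0.499 and 0.724 in betaine knockout. Betaine values of Mx1 were above wild type values and overlapped the knockout. Parp9 ran from 6.08 to 12.4 FPKM with overlapping groups.

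Of the small interferon-induced and secreted proteins, Ifi35 was called higher in both knockout groups and Lgals3bp in the betaine knockout. IFI35 is a leucine-zipper protein that associates with NMI. Ifi35 was at 7.21, 6.10 and 7.11 FPKM in wild type, 12.6, 14.8 and 11.3 in knockout and 13.5, 12.2 and 14.9 in betaine knockout. Both knockout groups were above wild type without overlap, with log2 fold change 0.87 ± 0.14 (SE), limma adjusted p = 0.00630 in the knockout and log2 fold change 0.94 ± 0.14 (SE), limma adjusted p = 0.00733 in the betaine knockout, and the difference between the knockout groups was 0.07 ± 0.14 (SE). Exons of Ifi35 overlap the opposite-strand gene Gm11626 over 16.8% of their bases, and without strand information reads there cannot be assigned. Lgals3bp, a secreted galectin-binding glycoprotein, was at 21.3, 16.1 and 20.2 FPKM in wild type, 19.6, 19.7 and 17.9 in knockout and 24.98, 40.3 and 40.3 in betaine knockout. Wild type and knockout differed by -0.00 ± 0.20 (SE) on the log2 scale, and the betaine group was above both (log2 fold change 0.83 ± 0.20 (SE), limma adjusted p = 0.0288 against wild type). Ifi27 was at 37.7, 49.6 and 36.6 FPKM in wild type, 47.7, 41.8 and 50.2 in knockout and 39.5, 49.2 and 47.6 in betaine knockout. It was the second most abundant gene of the list and its groups overlapped in every comparison. Ifi44 ran from 0.259 to 1.25 FPKM, highest in betaine replicate 2, and did not pass.

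The interferon-induced GTPases attack the membranes around intracellular pathogens and are classical interferon gamma targets. In the betaine knockout 2 of 5, Irgm1 and Ifi47, were called higher than wild type, as were 5.87% of all tested genes. With all libraries 0 of 5 were called in either of the other comparisons. Irgm1 was at 7.39, 5.89 and 9.22 FPKM in wild type, 10.2, 10.3 and 9.07 in knockout and 12.7, 20.5 and 17.3 in betaine knockout. The betaine libraries were above all others, with a change from wild type of log2 fold change 1.11 ± 0.20 (SE), limma adjusted p = 0.0120. Ifi47 was at 7.34, 5.61 and 7.51 FPKM in wild type, 13.3, 8.83 and 7.68 in knockout and 12.0, 23.3 and 15.5 in betaine knockout. Betaine replicate 2 was the highest, knockout replicate 1 reached the betaine range, and the change from wild type was log2 fold change 1.21 ± 0.26 (SE), limma adjusted p = 0.0226. Igtp was at 8.63, 11.8 and 23.0 FPKM in wild type, 10.7, 12.3 and 11.7 in knockout and 14.3, 39.6 and 23.0 in betaine knockout. Replicate 3 of wild type and replicate 3 of the betaine group were nearly equal, betaine replicate 2 was above them, and no comparison passed. Gbp3 was at 0.817, 1.06 and 3.03 FPKM in wild type, 1.93, 1.66 and 1.25 in knockout and 2.42, 4.84 and 2.15 in betaine knockout. Gbp7 was at 0.814, 1.06 and 3.60 FPKM in wild type, 1.36, 1.29 and 1.017 in knockout and 1.61, 3.86 and 1.92 in betaine knockout. Both guanylate-binding proteins were highest in betaine replicate 2 and next highest in wild type replicate 3, with the other 7 libraries below.

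Single libraries thus ordered the genes within groups. Wild type replicate 3 was the highest wild type library for 33 of the 39 tested genes, beside 34.1% of all tested genes. The highest of all 9 libraries was in the betaine group for 32 of 39 (29.5% of all) and was betaine replicate 2 for 21 (8.44%). Betaine replicate 2 was the highest betaine library for 24 of 39, beside 30.4% of all, and knockout replicate 2 the highest knockout library for 26 of 39, beside 32.2%. The median deviation of the 39 from their means over the 9 libraries was -0.52, -0.63 and 0.01 in wild type, -0.07, -0.02 and -0.19 in knockout and 0.24, 0.64 and 0.45 in betaine knockout. By that measure wild type replicate 3 lay with the knockout libraries, and the betaine libraries remained above all others. The GTPases and the IFIT genes differed in which library led: the GTPase median was 0.22, 1.14 and 0.57 in betaine replicates 1 to 3, the IFIT median 1.13, 0.85 and 0.71. In wild type replicate 3 the median was 0.55 for the GTPases and -0.20 for the IFIT genes. Differences between these roles are descriptions and were not tested.

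**Figure D4:**
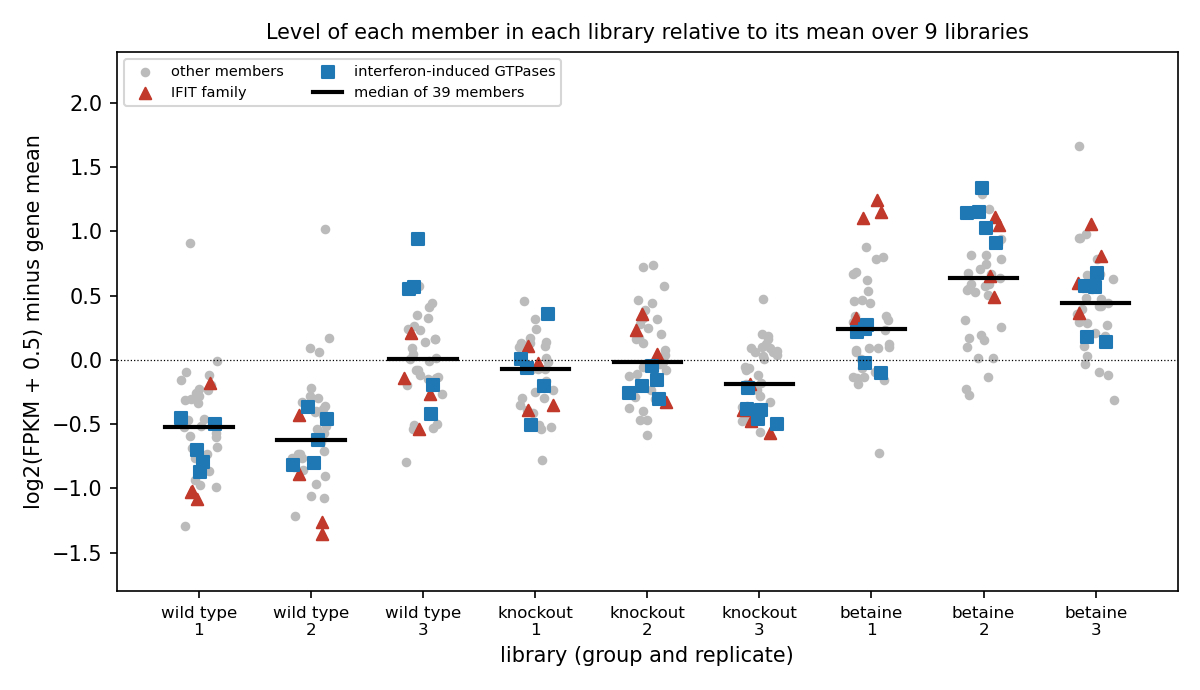
Level of each of the 39 tested genes in each library (x axis), as log2(FPKM + 0.5) minus the gene's mean over the 9 libraries (y axis); triangles are IFIT genes, squares the interferon-induced GTPases, grey points the rest and black lines the median of the 39. Medians run from -0.63 in wild type replicate 2 to 0.64 in betaine replicate 2, and the squares reach their highest place in that library.

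Summed markers of some other cell types, though not of all, were highest in betaine replicate 2 or in wild type replicate 3. In betaine replicate 2 the 7 T and NK cell markers summed to 7.96 FPKM, while the other 8 libraries held 1.61 to 3.57 (wild type 1.92 to 3.57, knockout 1.97 to 2.31). Of the 7, Gzma (3.49 FPKM, at most 1.04 elsewhere), Nkg7 (2.72, at most 1.36 elsewhere), Cd3e and Cd3g were highest there, and Gzma and Nkg7 made up most of the sum. Cd8a and Klrb1c were highest in wild type replicate 2 and Cd4 in betaine replicate 3. Cd3e was at 0.463 FPKM in betaine replicate 2, at most 0.136 elsewhere and at 0 in betaine replicate 1. The sum of the 6 Kupffer cell markers was likewise highest in betaine replicate 2, at 149.3 FPKM, with 113.0 to 142.1 in wild type, 71.9 to 87.2 in knockout and 53.8 and 104.7 in the other betaine libraries. Only Cd5l of the 6 was itself highest there (62.2 FPKM), while Clec4f, Vsig4 and Timd4 were highest in wild type replicate 3 and Marco and Adgre1 in wild type replicate 2. Wild type replicate 3 had the highest sums for neutrophil (7.41 FPKM, elsewhere 1.10 to 6.10), sinusoidal endothelial (52.4, elsewhere 18.4 to 32.4) and stellate cell markers (46.0, elsewhere 15.9 to 36.5). All 5 endothelial markers, 3 of the 6 stellate cell markers (Lrat, Reln and Dcn) and 3 of the 5 neutrophil markers (S100a8, S100a9 and Retnlg) were highest in that library, and the neutrophil markers Ly6g and Mpo were at 0 there. Other sums ran differently. In betaine replicate 2 the hepatocyte (32140 FPKM) and cholangiocyte (19.9) sums were the lowest of the 9 libraries. Its B and plasma cell (1.75) and conventional dendritic cell (1.63) sums lay within the range of the other libraries. In wild type replicate 3 the hepatocyte (65122) and cholangiocyte (46.7) sums were the highest, and the T and NK cell sum (2.65) lay within the range of the others. The part of these cell types in the levels above was not tested. Bst2 is also a marker of plasmacytoid dendritic cells; Siglech, the defining one, had 5 to 15 reads per library, at 0.0938 to 0.135 FPKM in wild type, 0.197 to 0.312 in knockout and 0.158 to 0.202 in betaine knockout.

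Transcripts of interferons themselves were almost not seen. Of 21 interferon genes 19 had no read in any of the 9 libraries, Ifnk had 0 to 3 reads per library and Ifng had 2 reads in betaine replicate 2 and 0 elsewhere, so differences in ligand were not detectable at this depth. Of 9 tested receptor and JAK-STAT genes 1 was higher and 4 were lower in the knockout than in wild type, where 12.8% and 12.7% of all tested genes were. For this list and those that follow, which are small, such counts are descriptions. The higher gene was Il10rb (log2 fold change 0.52), a subunit of the interferon lambda receptor, and the lower ones were Jak1 (-0.74), Jak2 (-0.65), Ifngr1 (-0.47) and Stat3 (-0.44), and Stat3 was also lower in the betaine knockout (-0.53). Without wild type replicate 3 the calls of Jak2, Ifngr1 and Stat3 in the knockout were lost (limma adjusted p = 0.0593, 0.0580 and 0.0609) and Ifngr2 was called lower (0.0468), which made 1 higher and 2 lower. The interferon alpha receptor genes Ifnar1 and Ifnar2 did not pass, with log2 fold changes of -0.04 and 0.09 in the knockout.

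Of 15 tested sensors and adaptors outside the list 2 were higher and 3 lower in the knockout, the same counts as without wild type replicate 3 and near the shares of 12.8% and 12.7% of all tested genes. Mavs, the mitochondrial adaptor of the RNA helicases, was at 32.3, 33.8 and 23.2 FPKM in wild type, 14.8, 13.6 and 13.5 in knockout and 13.8, 16.0 and 20.4 in betaine knockout. Wild type exceeded both knockout groups (log2 fold change -1.05 ± 0.18 (SE), limma adjusted p = 0.00717 in the knockout and log2 fold change -0.81 ± 0.18 (SE), limma adjusted p = 0.0247 in the betaine knockout). Traf6 (-0.69) and Trim56 (-1.019) were the other genes lower in the knockout, and Irf3 (0.79) and Myd88 (0.43) were the higher ones. In the betaine knockout Mavs and Traf6 (-0.58) were lower than wild type and 0 were higher. With wild type replicate 3 left out, Ddx58, Tlr3 and Ikbke were called higher there too. Of 11 tested negative regulators 3 were lower in the knockout, the phosphatase Ptpn11 (-0.84), the SUMO ligase Pias1 (-0.62) and the deubiquitinase Cyld (-0.62), 0 were higher, and Ptpn11 alone was lower in the betaine knockout (-0.62). These counts were the same without wild type replicate 3, and 12.7% of all tested genes were lower in the knockout and 5.78% in the betaine knockout.

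Among 56 tested interferon-induced genes outside the list, 7 were higher and 1 lower in the knockout, and 11 were higher and 0 lower in the betaine knockout, both against wild type. Of all tested genes 12.8% were higher in the knockout, so 7 of 56 is near the background, and 5.87% were higher in the betaine knockout. Without wild type replicate 3 the counts were 9 higher and 0 lower in the knockout and 15 higher and 0 lower in the betaine knockout, beside 9.99% and 5.59% higher over all tested genes. The medians with all libraries were 0.08 and 0.34. In the knockout the smallest p-values were those of the proteasome activator genes Psme1 (0.98) and Psme2 (0.99), of Apol9a (1.11), Apol9b (0.96) and of Ifitm3 (1.18), which blocks entry of virus at the endosome. In the betaine knockout they were those of Apol9a (1.52), Apol9b (1.14), Psme1 (0.71), Parp10 (0.91) and Ube2l6 (0.66), the last an E2 enzyme for ISG15, and the peptide transporter Tap1 (1.01) and the chemokine Cxcl10 (0.80) were also called. Parp12 was the gene lower in the knockout (-0.86), a call that was lost without wild type replicate 3. Between betaine knockout and knockout 0 genes were called in any of these 5 lists with all libraries. That comparison without wild type replicate 3 called Ddx58, Tap1, Parp12 and Znfx1 higher and Myd88 lower. The gamma-responsive genes Gbp2, Tgtp1 and Cxcl9 had betaine replicate 2 as their highest library, at 4.12, 3.99 and 7.66 FPKM, and wild type replicate 3 as the next, at 3.67, 1.67 and 7.50. The choice of these 3 was made with their values known.

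The scale of the deposited values bears on the direction in the knockout. Scaling by size factors centres the typical gene, so a median near 0 over all tested genes is largely set by that scaling. When each library was rescaled to the same sum (TPM), the median of all tested genes moved to -0.36 in the knockout and to 0.33 between betaine knockout and knockout, and the medians of the 39 became -0.01 and 0.96. Relative to the median of all tested genes the 39 stood at 0.28 as deposited and 0.35 as TPM in the knockout, and at 0.56 and 0.62 in the betaine comparison within the knockout. Against wild type the betaine knockout had 0.79 and 0.84 by the same measure. The direction relative to all genes was thus the same under both scalings, and the counts differed. As TPM the 39 were called higher in the knockout less often than all tested genes. Of all calls in the knockout 50.2% were higher as deposited, 13.8% as TPM and 37.5% when libraries were scaled to their own read totals. Between betaine knockout and knockout the shares were 40% of 5 calls, 95.8% of 1754 and 80.6% of 67, and between betaine knockout and wild type 50.4%, 53.9% and 69.6%. Reads of near-identical sequence limit single genes further: Oas1a and Oas1g shared 57.6% and 45.7% of their 50-base exon windows, and 8 of the 42 genes shared over 10%.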

How the data were processed

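Per the labels' protocols, poly-T selected RNA was sequenced in 9 mouse liver libraries. The authors deposited 1 FPKM value per gene and library; the submitters' processing notes list mm10 and the programs DESeq2 1.16.1, HISAT2 2.0.5 and featureCounts 1.5.0-p3, and their settings are not given in the sources used here. Read numbers were recovered from the FPKM with exon lengths of GENCODE M21: 98.3% to 98.6% of low values fell within 0.05 of a whole read. Groups came from the sample titles. All 9 libraries were fitted in one limma 3.58.1 model (R 4.3.3, eBayes with trend and robust) on log2(FPKM + 0.5), for genes with a mean of 0.5 FPKM or more, with two-sided tests and Benjamini-Hochberg adjustment within each of the 3 comparisons. The fit was tested on simulated data. Fold changes are 2 to the power of the fitted log2 difference. Members with a call in any comparison, and at least 1 without a call per family, are given by library; from the pathway lists up to 5 genes per comparison are named. The genes, their roles and the pathway lists were chosen with earlier results of these data known. One gene of the pathway lists is not reported here, and counts over those lists leave it out. Alternatives were other pseudocounts, filters and scalings, removal of an exon length trend, a replicate block, fits of 2 groups only, and leaving out each library. Promoter sequences are RefSeq's (GRCm38.p6). Figures used Python 3.11.15 with matplotlib 3.10.9.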

Additional observations from a re-analysis of the deposited data

How the results depend on the processing

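Of the values of single genes under alternatives, 2028 kept their direction and call, 166 lost a call, 61 gained one, 67 without a call changed sign, and 0 called values reversed. For knockout minus wild type the count of higher genes was 4 without the filter, 1 as TPM, 4 when scaled to each library's own read total and 5 with the exon length trend removed. Of all tested genes those 4 fits called 1865, 4262, 3121 and 2195, of which 48.95%, 13.8%, 37.5% and 48.5% were higher. As TPM the genes here were thus called higher less often than all tested genes, and by own read total about as often. The median was -0.0119 as TPM and 0.53 with that trend removed and without wild type replicate 3. For betaine knockout minus knockout the higher count was 0 without the filter, 13 as TPM, 3 by own read total, 6 with the trend removed and without wild type replicate 3 and 5 in a fit of these 2 groups only, and the median was 0.96 as TPM. For betaine knockout minus wild type the higher count was 11 without the filter and 11 as TPM, where 531 and 1074 of all tested genes were called, 52.9% and 53.9% of them higher. The lower count was 0 without the filter and 0 in a fit of the 2 groups, and the median was 1.04 with the trend removed and without wild type replicate 3.

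With the replicate number as a block the higher counts were 5, 0 and 12 in the order above. Deviations of same-numbered libraries from their group means had correlations from -0.227 to 0.098. The labels give no pairing, and these correlations cannot decide whether such libraries share a batch.

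Leaving out 1 library gave, for knockout minus wild type, 1 to 12 higher, 1 lower throughout and a median of 0.24 to 0.54. For betaine knockout minus knockout it gave 0 to 10 higher, 0 lower throughout and a median of 0.45 to 0.69. For betaine knockout minus wild type it gave 9 to 22 higher, 0 to 1 lower and a median of 0.61 to 0.97. Over the whole table, in the same order, 3029, 5 and 1381 genes were called; without the filter these were 1865, 1 and 531, and with the block 2210, 0 and 671. Fits of 2 groups called 35 in the second and 353 in the third, and in the second TPM called 1754, own read totals 67, pseudocounts of 0.1 and 1 FPKM 8 and 10, and the trend removed without wild type replicate 3 called 210 (1884 in the first). Leaving out 1 library gave 896 to 3231, 0 to 878 and 351 to 1441 calls in the whole table. The cause of these differences was not tested. Genes near 0.5 FPKM rest on few reads, and changes there are the least precise.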
